A study of Rattus norvegicus with 3 samples.

Results

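The Tribbles pseudokinase genes Trib1, Trib2 and Trib3 and the polo-like kinase genes Plk2 and Plk3 were followed in cultured rat granulosa cells. These 5 genes, of 14218 named genes on the array, were chosen by family with earlier results of the same arrays known, including the large differences of Plk2 and Trib2, so their values are a description and carry no test. All 10 probe sets that the array annotation assigns to one of these symbols alone were read. A probe set is the group of short oligonucleotides on the array that together report 1 transcript.

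The cells came from immature female Sprague-Dawley rats of 24 to 25 days, whose ovaries were taken 48 h after pregnant mare's serum gonadotropin, a hormone that drives follicles to grow towards ovulation. All groups were infected with adenovirus at 50 pfu per cell, so no uninfected cells were available for comparison. The first group (Ad-NFIL3+FSK/PMA) carried a virus for the transcriptional repressor NFIL3 and received 10 uM forskolin with 20 nM phorbol 12-myristate 13-acetate for 6 h, starting 24 h after infection. The second (Ad-GFP+FSK/PMA) received the same drugs after a green fluorescent protein virus, and the third (Ad-GFP) had that virus without drugs. Forskolin raises cyclic AMP and the phorbol ester activates protein kinase C, and together they were used to mimic the ovulatory gonadotropin. Each group had 1 array, hybridised with RNA pooled from 3 experiments, so the spread between cultures is unknown and no p-value can be given.

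Tribbles proteins have the fold of a protein kinase but little or no catalytic activity. They act as scaffolds that bring substrates such as C/EBP transcription factors to the ubiquitin ligase COP1, and they also bind the kinases MEK1 and AKT. Plk2 and Plk3, first known as Snk and Fnk, are polo-like kinases that were found as genes induced early by serum and growth factors. They have roles at the centrosome, in synapses and in stress responses, unlike Plk1, which drives mitosis.

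Plk2 and Trib2 differed most, and in opposite directions. With stimulation under the GFP virus, Plk2 was 48.7-fold higher and Trib2 was 20.7-fold lower. On the NFIL3 array, compared with the stimulated GFP array, Plk2 was 2.24-fold lower and Trib2 was 1.39-fold lower. Plk3, Trib1 and Trib3 had signals close to or under the detection floor of 126, which is the median of all signals on the 3 arrays. A floored signal has no order below that value, so a difference with 1 array under the floor is a lower bound.

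The upstream sequences of the 4 members with an entry in the RefSeq promoter table (assembly GRCr8) are shown first, because the stimulus acts through cyclic AMP and the virus adds a DNA-binding repressor. Each window runs from 250 bases before to 50 bases after an annotated transcript start. The whole window is given for Plk2 (chr2:43702286-43702585, plus strand) and Trib2 (chr6:44299045-44299344, minus strand), the members with the largest differences. For Plk3 (chr5:135849012-135849038 and chr5:135848944-135848970, minus strand) and Trib3 (chr3:161275563-161275589 and chr3:161275536-161275565, minus strand), only the stretches around matches are given. Sequences read 5′ to 3′, and capitals mark matches to the searched motifs.
Plk2 promoter: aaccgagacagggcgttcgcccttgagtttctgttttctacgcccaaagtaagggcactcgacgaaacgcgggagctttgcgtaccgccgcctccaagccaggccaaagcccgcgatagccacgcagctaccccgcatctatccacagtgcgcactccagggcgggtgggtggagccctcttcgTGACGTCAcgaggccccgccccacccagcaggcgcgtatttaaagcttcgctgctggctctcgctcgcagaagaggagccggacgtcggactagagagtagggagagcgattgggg
Trib2 promoter: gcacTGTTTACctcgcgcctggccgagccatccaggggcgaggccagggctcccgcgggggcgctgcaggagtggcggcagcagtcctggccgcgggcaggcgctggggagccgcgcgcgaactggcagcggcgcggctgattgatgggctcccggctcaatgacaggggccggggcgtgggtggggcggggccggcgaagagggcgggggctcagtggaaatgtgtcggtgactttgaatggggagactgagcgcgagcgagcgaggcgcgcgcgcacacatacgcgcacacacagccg
Plk3 stretch 1: gatctttcaggTGACGtaaggccgagc
Plk3 stretch 2: ggagctggagaTGACGaaacaccgggg
Trib3 stretch 1: cggcctctgggCGTCAgcagcagatta
Trib3 stretch 2: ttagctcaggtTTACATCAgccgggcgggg

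Searches for 6 motifs were run on both strands in these windows and in all 33469 promoters of the table. Plk2 held the full cyclic AMP response element TGACGTCA, the palindromic site of the CREB family, with its first base at position -66 from the start. That element was found in 1.83% of all promoters. Its shorter form, TGACG, lies within the full element on both strands and was found in 21.2% of all promoters. Plk3 held the short form at positions -127 and -59, and Trib3 held it on the opposite strand at -45. Trib2 had no match to either form. Its window held the forkhead core TGTTTAC at -246, a motif in 3.78% of promoters. The GC content was 73.0% for the Trib2 window, 63.0% for Plk2, 61.3% for Plk3 and 58.0% for Trib3. All were above the median of 51.7% over all promoters, and the motif shares were not matched for GC content.

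Trib3 also had a match at -21, on the opposite strand, to TGATGNAA, a C/EBP-ATF composite site of the kind ATF4 and CHOP bind, which 3.98% of promoters held. The palindromic NFIL3 site TTACGTAA, in 0.12% of promoters, and the AP-1 site TGANTCA, in 7.33%, had no match in the 4 windows. The NFIL3 site was searched only in this exact form, so variants of it in the printed stretches were not looked for. A match describes letters in a window and does not show binding, and the absence of a match concerns only these letters in this window. The map of matches along the windows shows where they lie relative to the start.

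**Figure D1:**
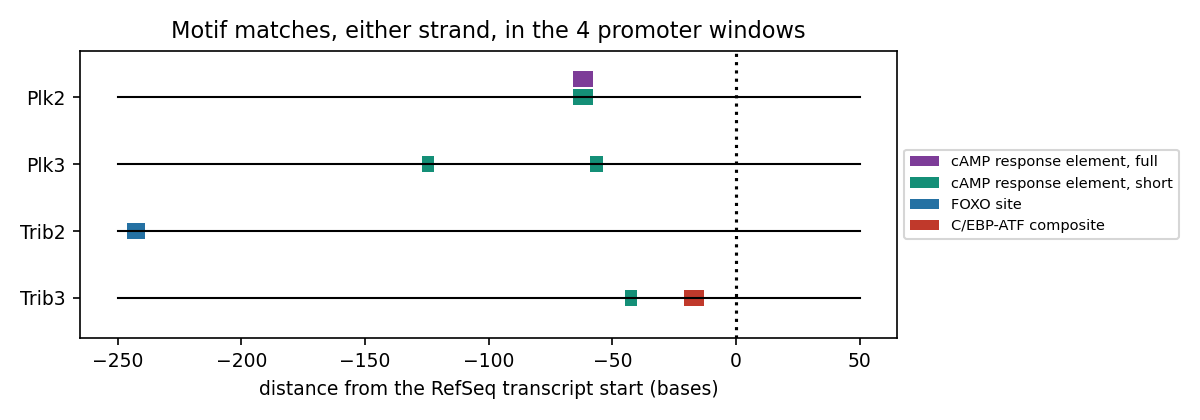
Matches to the searched motifs on either strand, by distance in bases from the annotated transcript start, in the windows of Plk2, Plk3, Trib2 and Trib3. The dotted line marks the start, and the full cyclic AMP response element of Plk2 at -66 is drawn above its 2 overlapping short forms.

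The 2% trimmed mean of the deposited signals was 500.2 on every array, a value that scaling sets. The share of probe sets above the floor was 48.1% to 51.8%, and the median log2 difference of all measured genes was -0.10 for stimulation and 0.03 for NFIL3. Nfil3 itself had a signal of 5882.5 on the Ad-NFIL3+FSK/PMA array, 1321.0 on the Ad-GFP+FSK/PMA array and 563.7 on the Ad-GFP array, highest under the label that carries its virus. Whether its 1 probe set lies in the sequence the virus carries is not known here. Of 8 granulosa markers 7 were matched on the array, and all 7 were above the floor on at least 1 array.

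Markers of other cells were read beside the members, since bulk RNA cannot tell fewer cells of a type from less RNA per cell. The summed signal of the 7 granulosa markers was 33439 on the Ad-NFIL3+FSK/PMA array, 60071 on the Ad-GFP+FSK/PMA array and 75460 on the Ad-GFP array. Most of this sum was Inha, at 18604.2, 29910.6 and 26489.2 on those arrays, and Inhba, at 8520.4, 21911.9 and 29368.8. Of the 7 granulosa markers 3 (Inhba, Foxl2 and Fst) were highest on the Ad-GFP and lowest on the Ad-NFIL3+FSK/PMA array, as Trib2 was. Cyp19a1, the aromatase gene, had signals of 992.3, 2490.3 and 120.1 on the Ad-NFIL3+FSK/PMA, Ad-GFP+FSK/PMA and Ad-GFP arrays, and it and Inha were highest on the Ad-GFP+FSK/PMA array. Amh and Nr5a2 were lowest on that array. The 6 leukocyte markers summed to 2452, 2238 and 1311 on the Ad-NFIL3+FSK/PMA, Ad-GFP+FSK/PMA and Ad-GFP arrays, and 1 of them was below the floor throughout. Cd14 was the largest part of this sum, at 1562.2, 1487.7 and 605.8. Cd68 had the same order, at 297.1, 254.1 and 186.7, and Cd74, at 202.8, 254.1 and 246.4, did not. The 7 theca and stroma markers summed to 1248, 825 and 968, with 3 below the floor throughout, among them the theca genes Cyp17a1 and Insl3. The 5 oocyte markers summed to 430, 575 and 967, with 4 below the floor throughout, and the other, Zp2, had 268.9, 405.8 and 890.9. The 4 endothelial markers summed to 514, 476 and 385, with 2 below the floor throughout. The 2 red cell markers summed to 15713, 18366 and 19936. No marker was at 0, and their part in the differences of the members was not tested.

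Plk2 encodes a kinase that acts in centriole duplication and, in neurons, in weakening active synapses. Its signal was 6538.9 on the Ad-NFIL3+FSK/PMA array, 14620 on the Ad-GFP+FSK/PMA array and 300.0 on the Ad-GFP array, all above the floor. Both stimulated arrays were thus far above the unstimulated one, and the NFIL3 array lay between the other two. The log2 difference between stimulated and unstimulated GFP cells was 5.61, the fifth highest of 9395 measured genes by floored signals and in place 10 by signals without a floor, which is where genes with bounds can move ahead. Of the 4 members measured in this comparison, Plk2 was the 1 at least 2-fold higher, beside 7.43% of measured genes.

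With NFIL3 the Plk2 signal was 44.7% of that on the stimulated GFP array, a log2 difference of -1.16. It was in place 53 from the lowest among 9397 measured genes (103 without a floor), and Plk2 was the 1 member at least 2-fold lower, against 0.958% of measured genes. No member was at least 2-fold higher with NFIL3, against 1.34% of measured genes. A rough technical error comes from how far the probe sets of a gene disagree. Over genes with exactly 2 measured probe sets, the robust SD of a log2 difference was 0.24 in the NFIL3 comparison and 0.36 in the stimulation comparison. This SD leaves out the variation between cultures, and Plk2 has 1 probe set, so its own values could not be set against a second measurement. Against unstimulated GFP cells, the NFIL3 array was still 21.8-fold higher, with Plk2 in place 7 of 9647 measured genes (20 without a floor).

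**Figure D2:**
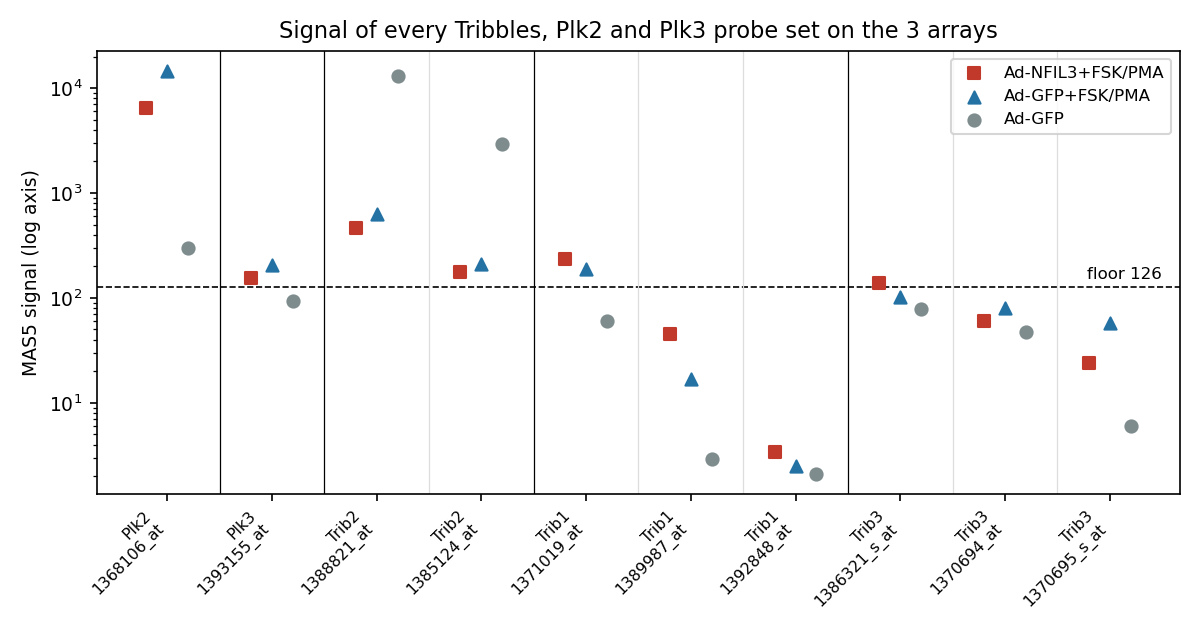
Signal of each of the 10 probe sets of the 5 genes (log axis) on the Ad-NFIL3+FSK/PMA, Ad-GFP+FSK/PMA and Ad-GFP arrays, 1 point per array, with the floor of 126 dashed. Plk2 was highest on the Ad-GFP+FSK/PMA array, both Trib2 probe sets were highest on the Ad-GFP array, and most Trib1 and Trib3 points lay under the floor.

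Plk3, which in other cells acts in stress and DNA damage responses, had a signal of 156.5 on the Ad-NFIL3+FSK/PMA array, 205.4 on the Ad-GFP+FSK/PMA array and 93.5 on the Ad-GFP array. The order of the arrays was that of Plk2, at signals near the floor. Because the unstimulated signal was below the floor, the difference with stimulation was a bound of at least 1.63-fold, while the ratio of the signals as scaled was 2.20. With NFIL3, Plk3 was 1.31-fold lower than on the stimulated GFP array, a log2 difference of -0.39. Against unstimulated GFP cells it was at least 1.24-fold higher on the NFIL3 array.

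Trib2 binds COP1 and, in human melanoma cells, holds FOXO factors in check. The brighter of its 2 probe sets had a signal of 459.2 on the Ad-NFIL3+FSK/PMA array, 637.5 on the Ad-GFP+FSK/PMA array and 13173 on the Ad-GFP array. The second had 178.6, 211.2 and 2923.0 on those arrays in the same order. Both probe sets were above the floor throughout, highest without stimulation, and lowest with NFIL3. For stimulation the log2 difference was -4.37 at the brighter and -3.79 at the dimmer probe set, which is 20.7-fold and 13.8-fold lower. By floored signals Trib2 was in place 2 from the lowest of 9395 measured genes, and in place 13 without a floor. It was the 1 member at least 2-fold lower, beside 11.4% of measured genes.

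With NFIL3 the Trib2 signal was 72.0% of that on the stimulated GFP array. The log2 difference was -0.47 at the brighter probe set and -0.24 at the dimmer one, and the second of these equals 1 technical SD. Both stimulated arrays were far below the unstimulated array, so the step between them was small beside the stimulation difference. Against unstimulated GFP cells, the NFIL3 array was 28.7-fold lower at the brighter and 16.4-fold lower at the dimmer probe set. The brighter one was in place 1 from the lowest of 9647 measured genes by floored signals, and in place 5 without a floor. In that comparison 1 member was at least 2-fold higher and 1 at least 2-fold lower, beside 6.52% and 9.05% of measured genes. It shares an array with each of the other comparisons, which share the Ad-GFP+FSK/PMA array between them, so none is independent of the others.

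Trib1 is the Tribbles gene best known for lowering C/EBP alpha in mouse myeloid cells and hepatocytes. Its brightest probe set had a signal of 233.0 on the Ad-NFIL3+FSK/PMA array, 188.3 on the Ad-GFP+FSK/PMA array and 59.6 on the Ad-GFP array. Unlike Trib2, this probe set was highest on the 2 stimulated arrays. The difference with stimulation was at least 0.58 on the log2 scale, with a ratio of scaled signals of 3.16. With NFIL3 it was 1.24-fold higher than on the stimulated GFP array. With the mean over its probe sets, the log2 difference was 0.19 for stimulation and 0.30 for the NFIL3 array against unstimulated cells, against bounds of 0.58 and 0.89 at the brightest probe set. The other 2 probe sets were below the floor on all arrays, with signals from 2.1 to 45.5, and were not measured. Once floored they add no difference, so the lower values of the mean follow from the floor. Without a floor, their ratios were 5.81 and 1.18 for stimulation and 2.73 and 1.35 for NFIL3. These had the direction of the brightest probe set, at signals far under the floor.

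Trib3, called NIPK in rat when it was found, is induced by ATF4 and CHOP under stress of the endoplasmic reticulum or lack of amino acids. Its brightest probe set, of a type that can bind several transcripts, had a signal of 139.0 on the Ad-NFIL3+FSK/PMA array, 102.3 on the Ad-GFP+FSK/PMA array and 78.9 on the Ad-GFP array. Only the NFIL3 array was above the floor, which gave a bound of at least 1.10-fold higher than either GFP array. The other 2 probe sets were below the floor throughout, with signals between 6.0 and 81.0, and gave no difference. Without a floor, their ratios of the NFIL3 to the stimulated GFP array were 0.74 and 0.417, against 1.36 at the brightest, so the probe sets differed in direction. No stimulation difference was measured for Trib3. Of the 10 probe sets of the family, 3 were above the floor on all arrays, 3 on 1 or 2 arrays and 4 on none.

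**Figure D3:**
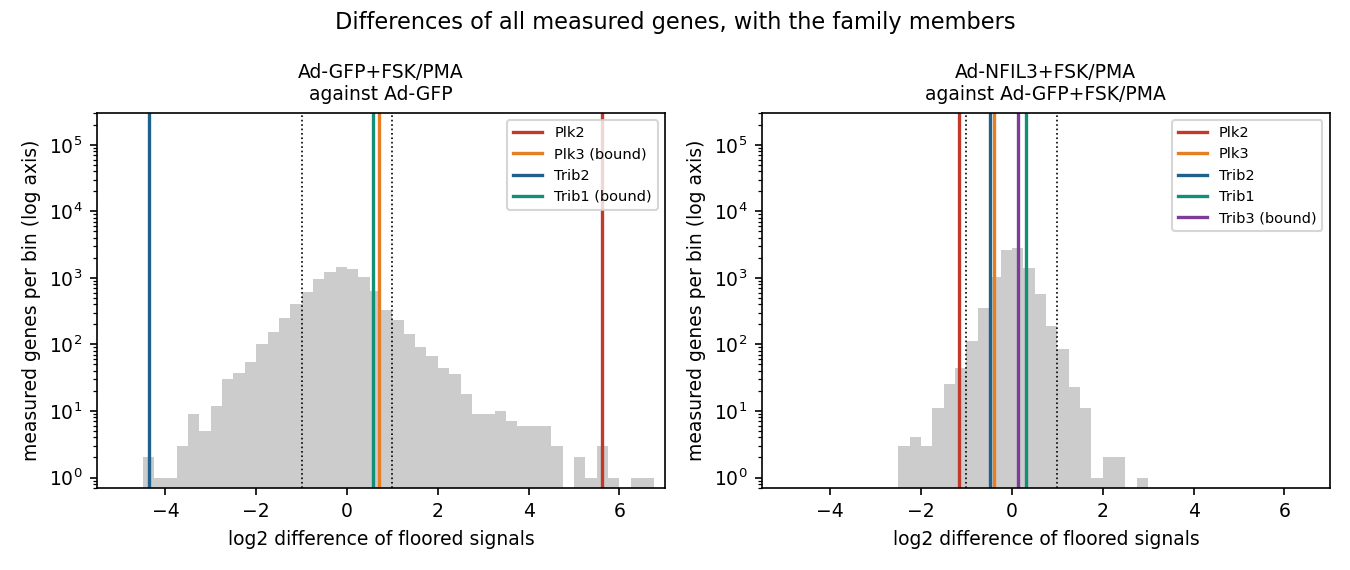
Number of measured genes (log axis) by log2 difference of floored signals, in narrow bins of equal width, for Ad-GFP+FSK/PMA against Ad-GFP and for Ad-NFIL3+FSK/PMA against Ad-GFP+FSK/PMA. Coloured lines mark the members and dotted lines 2-fold. Plk2 at 5.61 and Trib2 at -4.37 lie in opposite tails for stimulation, and with NFIL3 only Plk2, at -1.16, lies past 2-fold.

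Genes with the most similar pattern were sought by Euclidean distance over the stimulation and NFIL3 log2 differences, which rest on 3 arrays, among 6389 to 6390 genes that reached 4 times the floor on some array. Plk2 had 0 genes within a distance of 0.5. It was in place 5 from the highest for stimulation, where few genes lie, so this count follows largely from its size. The nearest were Ass1, argininosuccinate synthase, at 0.55, Penk, the enkephalin precursor, at 0.65, and Ptgs2, the inducible cyclooxygenase, at 0.83. Penk, at 53.2, and Ptgs2, at 101.8, were under the floor on the Ad-GFP array, so their stimulation differences are lower bounds and their distances are set by the floor. Ass1 had a signal of 2205.8 on the Ad-NFIL3+FSK/PMA array, 5336.2 on the Ad-GFP+FSK/PMA array and 159.4 on the Ad-GFP array. Its log2 differences of 5.07 and -1.27 were close to the 5.61 and -1.16 of Plk2.

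Trib2, in place 2 from the lowest for stimulation, also had 0 genes within 0.5, and the same limit holds for it. Its nearest were Mmp11, a matrix metalloproteinase, at 0.64, Hao2, a hydroxyacid oxidase, at 0.80 and Wnt5b, a Wnt ligand, at 0.84. Wnt5b was under the floor on the Ad-NFIL3+FSK/PMA and Ad-GFP+FSK/PMA arrays, at 41.3 and 39.0, so its stimulation difference of -3.68 is a bound, its NFIL3 difference was not measured and its distance is set by the floor. Mmp11 had signals of 169.4, 151.8 and 3393.3 on the Ad-NFIL3+FSK/PMA, Ad-GFP+FSK/PMA and Ad-GFP arrays, so unlike Trib2 it was not lower with NFIL3. The stimulation differences of Plk3 and Trib1 are bounds, so the floor sets where they lie, with 1105 genes within 0.5 of Plk3 and 1086 of Trib1. The nearest to Plk3 were Tp53rka, Smchd1 and Etnk1, and those to Trib1 were Mef2d, Slc10a3 and Fitm2, at distances of 0.03 or less. No nearest genes are given for Trib3, which had no measured stimulation difference. With the floor at the 25th percentile of signals, 1 of the 3 nearest genes remained for Plk2 and for Trib2, and 0 for Plk3 and for Trib1.

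Partners and targets of the Tribbles proteins were read as a list of 18 genes, of which 15 were matched and measured. With stimulation, 4 were at least 2-fold higher and 1 at least 2-fold lower, beside 7.43% and 11.4% of all measured genes. The median log2 difference of the list was -0.07, beside -0.10 over all genes. Foxo1, a forkhead factor restrained by AKT, was 5.58-fold lower, with signals of 2105.9 on the Ad-GFP+FSK/PMA array and 11757.8 on the Ad-GFP array. Cebpb was 3.73-fold higher, Map2k1, which encodes MEK1, was 2.73-fold higher, and Atf4 was 2.40-fold higher. Cop1, the ligase itself, had signals of 2108.2, 2262.3 and 2381.0 on the Ad-NFIL3+FSK/PMA, Ad-GFP+FSK/PMA and Ad-GFP arrays and was within 2-fold in both comparisons. The fourth of the higher genes was Stk40, a Tribbles-like pseudokinase, named after its value of 2.24-fold was seen.

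With NFIL3, 0 of those 15 genes were past 2-fold (1 was lower with arrays scaled to their median) and the median was -0.02, beside 0.03 over all genes. Atf4 was 1.93-fold lower, with signals of 3689.5 on the Ad-NFIL3+FSK/PMA array and 7110.6 on the Ad-GFP+FSK/PMA array. Det1, a partner of COP1, was 1.62-fold higher at signals near the floor. Foxo1 was 1.39-fold lower and Cebpa, the C/EBP factor that Trib1 and Trib2 target, was 1.31-fold higher.

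ATF4 and CHOP, the setting in which Trib3 is usually induced, were read with their partners, their targets and kinases upstream of ATF4. This list had 16 genes, all measured. With stimulation, 5 were at least 2-fold higher and 1 at least 2-fold lower, and the median was 0.45, beside 7.43% higher, 11.4% lower and a median of -0.10 over all genes. Asns, asparagine synthetase, was 22.0-fold higher, with signals of 5959.7 on the Ad-GFP+FSK/PMA array and 271.0 on the Ad-GFP array. Slc7a11, the cystine transporter, was at least 2.76-fold higher, and Cebpb and Atf4 also belong to this list. The fifth higher gene, Ddit4, at 2.35-fold, and the lower gene, the amino acid sensor Eif2ak4, at 2.10-fold, are named after their values were seen, and Eif2ak4 was within 2-fold with arrays scaled to their median. Ddit3, which encodes CHOP, was 1.13-fold lower, at 357.8 on the Ad-GFP+FSK/PMA array and 404.0 on the Ad-GFP array.

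In the NFIL3 comparison the same list had a median of -0.50, and 13 of 16 genes were below 0, though 0 were past 2-fold in either direction. The share of all measured genes below 0 was not counted. Over all genes the median was 0.03, with 1.34% at least 2-fold higher and 0.958% lower. Vldlr, a lipoprotein receptor, was 1.95-fold lower, Atf4 was 1.93-fold lower and Asns was 1.61-fold lower. Nupr1, a stress-induced transcription regulator, was 1.62-fold higher. With arrays scaled to their median instead, 2 of the 16 were at least 2-fold lower. Trib3 itself had only the bound given above.

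Other kinases that are rapidly induced in many cells made a list of 14, of which 13 were matched and 8 measured for stimulation. Of the 8, 2 were at least 2-fold higher and 1 at least 2-fold lower, beside 7.43% and 11.4% of all measured genes. Sik1, the salt-inducible kinase that restrains CREB coactivators, was 3.69-fold higher, and Stk17b was 2.13-fold higher. Sgk1, a kinase related to AKT, was 2.25-fold lower, with signals of 5899.8 on the Ad-GFP+FSK/PMA array and 13253.5 on the Ad-GFP array. Sik2 was 1.54-fold lower, and the median of the list was -0.31. Under NFIL3 9 were measured, with a median of -0.07, and 0 were past 2-fold, beside 1.34% higher and 0.958% lower over all genes. With the floor at the 25th percentile, 2 were at least 2-fold higher and 1 at least 2-fold lower. Pim3 was 1.62-fold lower, Sik1 was 1.53-fold lower, Snrk was at least 1.37-fold higher and Sgk1 was 1.24-fold lower.

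The other polo-like kinases were dim. Plk1, the mitotic member, had signals of 118.1, 145.1 and 186.1 on the Ad-NFIL3+FSK/PMA, Ad-GFP+FSK/PMA and Ad-GFP arrays, 1.28-fold lower with stimulation and at least 1.15-fold lower with NFIL3. Plk5 had 223.1, 105.5 and 9.6 in the same order, at least 1.77-fold higher with NFIL3 than on the stimulated GFP array. Plk4, the kinase of centriole duplication, was below the floor on all arrays, with signals from 70.7 to 81.6.

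Plk2 and Plk3 are known p53 targets in human cells, so 13 genes of that list were read, 10 of them matched. With stimulation 1 of 9 measured genes was past 2-fold, beside 7.43% higher and 11.4% lower over all genes. It was Cdkn1a, the cell cycle inhibitor p21, at 3.23-fold higher. Ccng1 was 1.89-fold lower, Phlda3 was at least 1.85-fold lower and Sesn1 was 1.76-fold lower, and the median was -0.61. With the floor at the 25th percentile, 2 genes of the list were at least 2-fold lower with stimulation. Under NFIL3 the median was 0.11 and 0 of 8 were past 2-fold, beside 1.34% higher and 0.958% lower over all genes. Zmat3 was 1.62-fold higher and Bbc3, a cell death gene, was 1.37-fold higher, and Ccng1 and Sesn1 were each 1.11-fold higher.

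Of 16 reported substrates and partners of Plk2 and Plk3, 10 were matched and 8 measured for stimulation. Their median was 0.22 and 0 of the 8 were past 2-fold, beside 7.43% higher and 11.4% lower over all genes. With arrays scaled to their median 1 was higher, and with the floor at the 25th percentile or with none 2 were lower. Jun was 1.90-fold higher, Rapgef2, a Rap exchange factor that Plk2 phosphorylates in neurons, was 1.68-fold lower, Cenpj, a centriole protein, was 1.64-fold lower and Hif1a was 1.37-fold higher. With NFIL3 the median was -0.02 and 0 of 7 were past 2-fold, beside 1.34% higher and 0.958% lower over all genes. Rapgef2 was 1.34-fold lower, Cdc25a was 1.30-fold higher, Cdc25b was at least 1.25-fold lower and Cib1 was 1.06-fold lower. The plot of list genes shows that the measured genes of all 6 lists were within 2-fold in the NFIL3 comparison at the floor and scaling used.

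**Figure D4:**
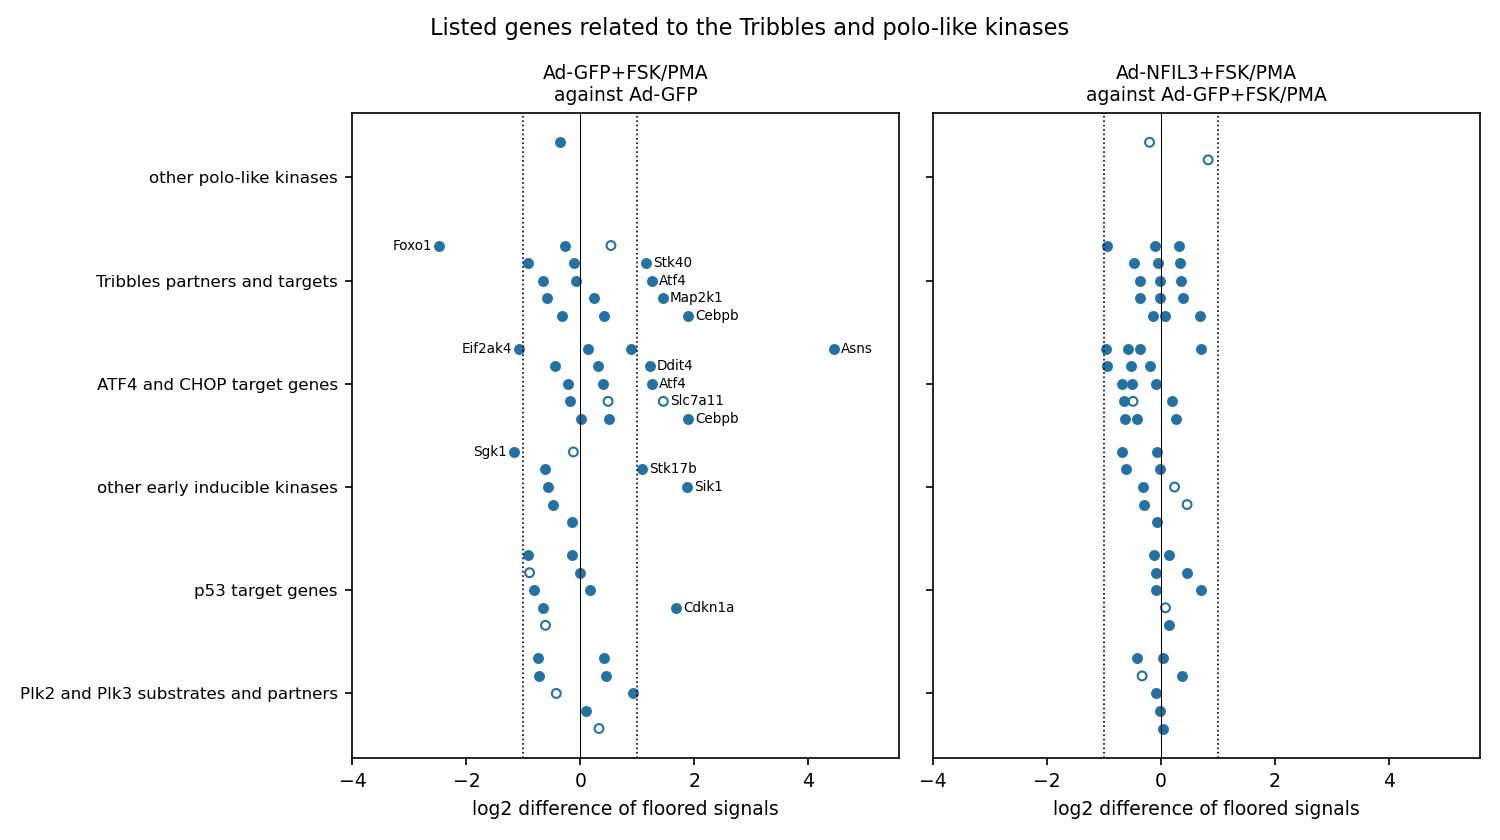
Log2 difference of floored signals for each measured gene of the 6 related lists, for Ad-GFP+FSK/PMA against Ad-GFP and for Ad-NFIL3+FSK/PMA against Ad-GFP+FSK/PMA. Open circles are bounds, dotted lines mark 2-fold, genes past 2-fold are named, and Cebpb and Atf4 belong to 2 lists. Asns at 4.46 and Foxo1 at -2.48 are the outermost for stimulation.

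The values of Plk2 and Trib2 kept their direction under the settings tried, as the plot of all settings shows. Several settings could not move Plk2, which has 1 probe set with all signals above the floor. A lower floor, no floor and the choice of probe set leave its values as they are. Over 9 settings at 2-fold, the main one included, Plk2 with stimulation ranged from 4.74 to 5.74 on the log2 scale and Trib2 from -4.51 to -4.08. With NFIL3, Plk2 ranged from -1.40 to -1.05, always past 2-fold, and Trib2 from -0.71 to -0.22. Only median scaling, at -1.40, and quantile normalization, at -1.05, moved the Plk2 value from its main -1.16. Trib1 and Plk3 passed 2-fold with stimulation only with a lower floor or none, at 1.66 and 1.14.

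**Figure D5:**
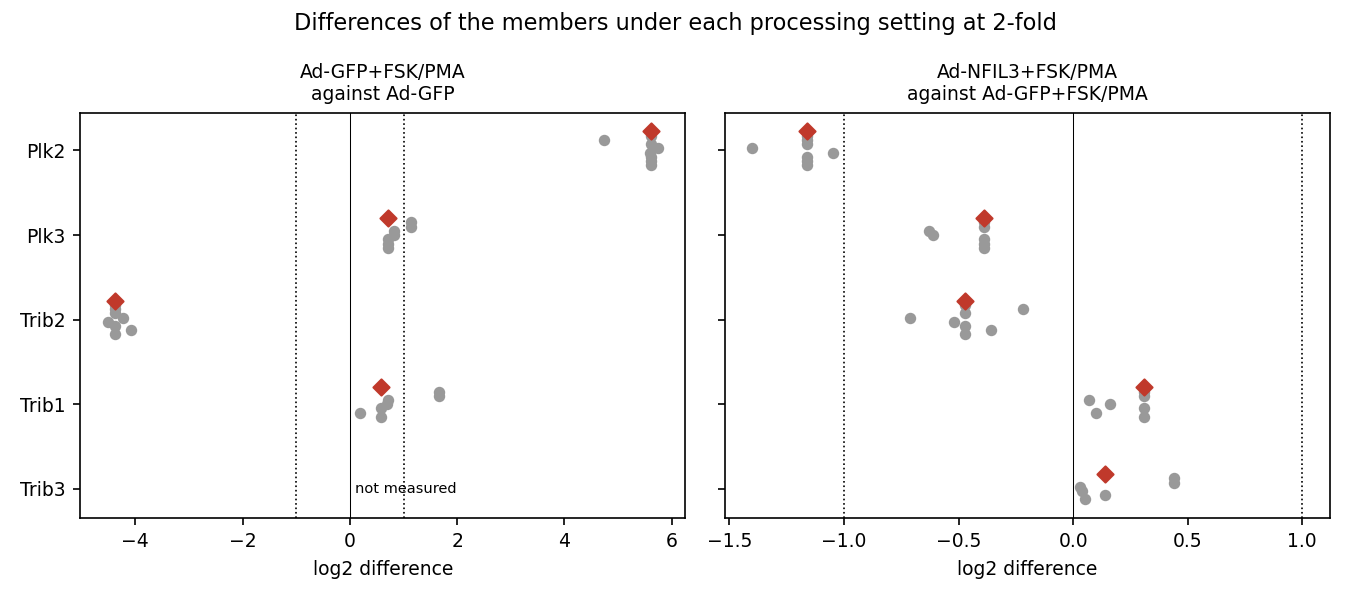
Log2 difference of each member under each processing setting, for Ad-GFP+FSK/PMA against Ad-GFP and for Ad-NFIL3+FSK/PMA against Ad-GFP+FSK/PMA, on axes of different scale. Red diamonds are the main values, grey points the alternatives, dotted lines 2-fold. No member changed direction under any setting in which it was measured, and Plk2 and Trib2 stayed past 2-fold with stimulation. The direction of Trib3 rests on its brightest probe set.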

How the data were processed

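RNA of 3 groups of granulosa cells, 5 ug pooled from 3 experiments each, was hybridised to 1 Affymetrix rat array per group. The authors made the deposited intensity values, linear MAS5 signals for each probe set, per the submitters' processing notes, and a version was not given in the sources used here. Detection calls were not used. MAS5 subtracts mismatch signal, which makes low values noisy.

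Each array was scaled to a common 2% trimmed mean, signals under the floor (the median, 126) were set to it, and log2 was taken (Python 3.11.15, pandas 2.3.3). A gene was represented by its brightest probe set on average, and a gene was measured when 1 of the 2 arrays was above the floor. Differences of 2-fold or more were counted. With 1 array per group no test is possible, and precision is limited by that number.

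Of 31099 probe sets, 20832 had 1 symbol, 436 several and 9831 none; 20764 matched the GRCr8 gene table by Entrez ID. Members and lists were chosen with earlier results of these data known. Named genes were the 5 members, Nfil3, up to 4 members of each list with the largest difference, and the 3 genes nearest each member except Trib3, left out because it had no measured stimulation difference. Cop1, Ddit3, Ddit4, Eif2ak4, Stk40, Plk4 and the cell type markers were named outside this rule, after their values were seen. The code was tested on simulated data. Promoters came from RefSeq; Trib1 had no entry in the table used.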

Additional observations from a re-analysis of the deposited data

How the results depend on the processing

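No member changed direction in the 7 to 9 settings, the main one included, in which it was measured. The 2 other thresholds cannot change a direction, and the direction of Trib3 rests on its brightest probe set. Plk3, Trib1 and Trib3 were not measured with the floor at the 75th percentile, nor Trib3 once its less specific probe sets were left out. Of 60 counts of members past 2-fold 53 were unchanged. The setting with values as deposited could hardly move any value, because the trimmed mean was already 500.2 on every array. Leaving out less specific probe sets could touch only Trib3 among the members. Both settings are part of the counts given here. With a floor at the 25th percentile or none, 3 members were higher with stimulation and 2 on the NFIL3 array against unstimulated cells, each against 1; a 1.5-fold threshold gave 2 and 2. At 3-fold, 0 members were lower with NFIL3. Fewer low signals are set to the floor in the first case, and the threshold is the change in the others. Of 360 counts in the 6 gene lists 298 stayed within 1.5 times. Of 102 member differences 84 moved by less than 1 technical SD, among them values that a setting could not change, such as Plk2 under a lower floor. Of 30 repeats of the search for nearest genes of members with a measured stimulation difference, 15 shared at most 1 of the 3 genes with the main search.

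Over all genes with stimulation, 698 were higher and 1072 lower (39.4% higher), against 856 and 852 (50.1%) with arrays scaled to their median and 420 and 402 (51.1%) with a floor at the 75th percentile. The median scaling moved the median log2 difference of all genes to 0.03 for stimulation and to -0.20 for NFIL3, where 48 were higher and 190 lower (20.2%), against 126 and 90 (58.3%). Quantile normalization gave 91 and 112 (44.8%) there; no floor gave 1507 and 910, and the 25th percentile floor 545 and 236. Relative to the all-gene median, Plk2 with NFIL3 was at -1.19 in the main setting and -1.20 with median scaling. The cause of these shifts was not tested. No paired analysis was possible because each group has 1 array.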
